A study of Drosophila melanogaster with 12 samples.

Results

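The regions described here are the places on the autosomes where an antibody against dBigH1 gave a called peak in both control libraries. They were chosen by merging the peaks of the 4 dBigH1 lists wherever peaks overlapped by 1 bp or more, and keeping merged regions on the large autosome arms (2L, 2R, 3L, 3R) or chromosome 4 that contained a peak of each control list. This left 263 regions, of 1041 merged dBigH1 regions on these chromosomes and 1263 in all. The control lists chose them, so their peak scores, widths and positions are given as a description without tests. H1 peaks took no part in the choice, and presence of an induced peak was not a condition, although induced peaks entered the merging.

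The libraries came from Drosophila melanogaster S2 cells, an established line of late embryonic origin, by chromatin immunoprecipitation and sequencing. Induced cells, whose label reads as wild-type dBigH1 under a 1 mM induction, and wild-type control cells were each profiled with polyclonal antibodies against dBigH1 and against H1, with 2 replicates per antibody and condition. A 24 h treatment with copper sulphate stands in the same words for every sample, so whether control cells also received copper is not given. The growth protocol mentions cell lines with FLAG-tagged dBigH1 kept under hygromycin, but no label ties a library to a clone, and nothing says whether replicates were separate cultures, so differences are read only against the spread between these libraries. A further 4 input samples were not used here.

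Linker histones bind the DNA at the entry and exit of the nucleosome and help to compact chromatin. In the fly, dBigH1 is the variant found in the germline and the early embryo, and the somatic H1 takes its place when the zygotic genome is switched on. H1 is spread along chromosomes and is reduced at active promoters, whereas a peak caller finds only local enrichment over background. Whether control S2 cells contain dBigH1 was not measured in these lists, so a dBigH1 peak means only a peak called with that antibody.

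With 196 and 238 peaks in induced cells (replicates 1 and 2), against 599 and 719 in control cells, the dBigH1 lists were the shorter ones. The H1 lists held 3545 and 5182 peaks in induced and 3814 and 5072 in control cells. H1 peaks covered 9.32% and 13.8% of the autosomes in induced cells and 9.64% and 13.4% in control cells, where a chromosome was taken to end at the last peak of all lists. The lists carry no read counts, so the depth of each library is unknown. The score of a peak is the caller's own, and as MACS of this version defines it, on a scale of 10 per unit of −log10 p, the lowest score of 50 stands for a caller p-value of 1e-05.

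Over all chromosomes 364 of the 1263 merged regions (28.8%) were held by both control lists, which is 38.2% of the 952 regions that any control list held. On the autosomes the 263 made up 35.9% of the 733 regions held by a control list, and a further 88 recurrent regions lay on X and 13 on heterochromatic or unplaced scaffolds. The large autosome arms carried 2.70 recurrent regions per Mb and X carried 4.06.

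Nearly all of the 263 were a simple pair of peaks. In 262 of them each control list contributed 1 peak, and in the remaining one each contributed 2. The midpoints of the paired peaks lay a median of 69 bp apart (quartiles 21 and 298 bp) and were within 100 bp of each other in 148 regions (56.3%). The paired peaks thus overlapped almost completely in most regions, with a median of 100% and a lower quartile of 98.7% of the shorter peak covered.

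A few regions sat at the edge of the rule. In 2L:15799477-15807154 the control peaks did not overlap each other, lay 113 bp apart, and were joined only by a peak of the second induced list. The smallest true overlap was 22 bp, in 2R:4557239-4565237, followed by 96 bp in 3R:2222643-2230787, which was added after its value was seen. In 2L:15632213-15642794, the region with 2 peaks from each control list, a peak of the second induced list bridged 2 overlapping pairs. Just outside the rule, 2L:3355646-3356846 was a peak of control replicate 2 alone with a score of 72.2, lying 75 bp from a replicate 1 peak with a score of 123. Next came 2L:9569473-9570998 and 2R:7828527-7831613, each a replicate 2 peak 91 bp from a replicate 1 peak. In each case that replicate 1 peak already belonged to a recurrent region, 2L:3354522-3355570, 2L:9568091-9569381 and 2R:7823219-7828435 in turn. The named peaks were thus extra peaks beside recurrent regions. Such close peaks were few, since 12 of the 470 autosomal regions of exactly 1 control list had a peak of the other control list within 1000 bp.

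The regions were mostly narrow, with a tail of broad ones. Merged width ran from 914 to 10582 bp with a median of 1840 bp (quartiles 1261 and 3118 bp). Of the 263, 93 (35.4%) were under 1500 bp, 70 (26.6%) reached 3000 bp and 27 (10.3%) reached 5000 bp. The recurrent regions on X were narrower, with a median of 1256 bp, 60.2% under 1500 bp and 10.2% at 3000 bp or more. Autosomal regions found in 1 control list and no induced list, 418 in all, had a median of 1747 bp. Peak width was much alike between the control libraries, with a Spearman rho of 0.82 between the paired peaks over the 263 regions.

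The 5 widest regions were all on 2L and 3L. They were 2L:15632213-15642794 (10582 bp), 3L:5000250-5010295 (10046 bp), 2L:17847206-17856622 (9417 bp), 3L:3482927-3492116 (9190 bp) and 3L:5053794-5062265 (8472 bp). None was a high scorer, as their control scores lay between 50.5 and 133. In the second of them the control peaks shared 362 bp, so its width came largely from peaks lying side by side. Induced peaks widened others. The control peaks were 3097 and 2180 bp wide in 2L:17847206-17856622 and 4179 and 2255 bp in 3L:3482927-3492116. In 2L:15632213-15642794 an induced peak bridged separate control peaks.

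Scores spanned the whole range of the control lists. The score of the 263 regions had a median of 108 in control replicate 1 (lowest 50.5, highest 3100) and of 114 in replicate 2 (lowest 50.3, highest 3100). Scores were 100 or more in both lists for 106 regions (40.3%), in 1 list for 73 and in neither for 84. The order of the regions was broadly shared by the libraries, with a Spearman rho of 0.61 over 263 regions, which share the same 2 libraries. Scores were within 1.5 times of each other in 165 regions (62.7%) and over 3 times apart in 12.

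Ranks within each list showed the same mixture of stable and unstable places. With each control list divided by rank into 4 equal parts, 65 regions were in the highest part of both lists and 64 in that of only 1 list. In 9 regions the peak was in the highest part of one list and the lowest part of the other. The score was higher in replicate 1 for 127 regions and in replicate 2 for 136.

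**Figure D1:**
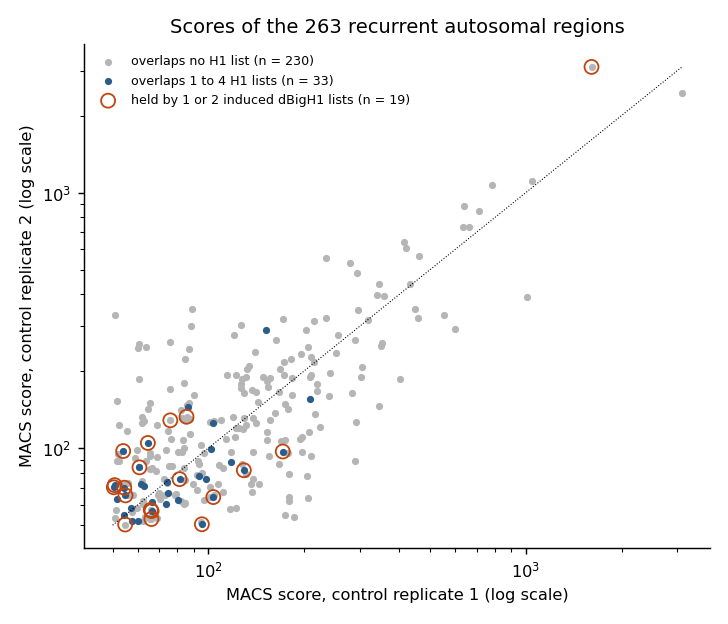
Score of each of the 263 regions in control replicate 1 (horizontal) and control replicate 2 (vertical), both on log scales, with the line of equal scores dotted. Blue points overlap an H1 peak in 1 to 4 H1 lists (33 regions) and grey points in none (230); circled points are held by an induced dBigH1 list (19 regions). Of the blue points 3 have scores of 100 or more in both lists, and 1 circled region lies at 1609 and 3100.

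The highest-ranked autosomal region was 3R:21068868-21071196, with scores of 3100 and 2445 in the control lists (ranks 1 and 6). In each control list 5 peaks, on any chromosome, tied at 3100. The leading region was followed by 2R:9372718-9374361, with scores of 1609 and 3100 (ranks 7 and 1), and by 2R:19599563-19601781, with scores of 1042 and 1114 (ranks 12 and 10). On 3R the next were 3R:24705376-24706839 (785 and 1071), 3R:12046051-12048791 (632 and 735) and 3R:10912377-10916449 (1006 and 391). These 6 were 1464 to 4073 bp wide, and none overlapped an H1 peak in any of the 4 H1 lists.

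The other 10 leading regions had control scores between 234 and 886. On 2L they were 2L:6612169-6613312 (709 and 849), 2L:3300953-3303023 (639 and 886), 2L:3631896-3633392 (661 and 731) and 2L:4887007-4888701 (421 and 605). On 3L they were 3L:12835768-12836963 (461 and 565), 3L:4622998-4625427 (431 and 438), 3L:22871476-22872648 (448 and 349) and 3L:4238966-4241511 (234 and 555). The other 2 leading regions of 2R were 2R:1939267-1941306 (456 and 322) and 2R:2549996-2551445 (346 and 441).

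All 16 of these leading regions were free of H1 peaks in every H1 list, and the 4 on 2L lay far from any. The nearest H1 peak was 707 kb from 2L:6612169-6613312 and 1023 kb from 2L:3300953-3303023 in the first induced list, and 1860 and 1026 kb away in the first control list. The 3L region at 4622998 lay closest among the 3L leaders, 7.17 and 4.15 kb from H1 peaks of the induced lists and 5.15 and 4.12 kb from those of the control lists. The highest-ranked region, 3R:21068868-21071196, lay 2.04 and 24.4 kb from H1 peaks of the induced lists and 11.2 and 2.14 kb from those of the control lists. Chromosome 4 held 2 recurrent regions, 4:87401-88419 with scores of 56.1 and 65.5 and 4:1047429-1048404 with scores of 215 and 217. Positions are in dm3 (Release 5), counted from 1, and gene annotation of that build was not used here.

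The regions were scattered along the arms. 2L held 79 (3.44 per Mb), 2R 52 (2.46), 3L 56 (2.28) and 3R 74 (2.66). In windows of 1 Mb the median was 2 regions, 8 of 98 windows held none and 25 held 4 or more. The fullest windows held 8, at 8 to 9 and 14 to 15 Mb of 2L and 12 to 13 Mb of 3R. The nearest other recurrent region was a median of 105 kb away (quartiles 29.7 and 237 kb).

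Close neighbours came only in pairs. Joining regions less than 10 kb apart gave 251 groups, of which 239 were single regions, 12 were pairs and none was larger, so that 24 regions (9.13%) had a neighbour within 10 kb. The pairs with the most covered sequence were 3R:2218866-2230787 (669 bp between its members), 3L:19123176-19134234 (222 bp) and 3L:16996259-17004646 (1 bp). A gap under 1000 bp separated the members in 5 of the 12 pairs. On X 26.1% of recurrent regions had such a neighbour, and X also held more regions per Mb. Of the 418 autosomal regions of 1 control list and no induced list, 18.4% had a neighbour of their own set within 10 kb. The part of density in these shares was not tested.

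H1 peaks were uncommon at the recurrent regions, in induced and in control cells alike. An H1 peak overlapped 19 and 28 of the 263 regions in the induced libraries (7.22% and 10.6%) and 19 and 23 in the control libraries (7.22% and 8.75%). Among all 952 merged regions held by 1 or more control lists, on any chromosome, the shares were 21.4% and 23.1% for the induced and 23.2% and 24.2% for the control H1 lists. The mean share was 8.94% ± 2.42 for induced and 7.98% ± 1.08 for control H1 libraries (SD, n = 2 each). The difference of 0.951 percentage points was smaller than the spread between replicates, and the exact permutation test gave a two-sided p of 1, where 2 against 2 libraries cannot go below 0.333. Without the second induced H1 library the difference was -0.760 points, so its direction rests on that library.

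The regions under H1 were largely shared by the 2 conditions, but only in part by the single H1 lists. No H1 list reached 230 of the 263 regions (87.5%), 1 list reached 6, 2 lists 8, 3 lists 9 and all 4 lists 10. Of the 33 regions reached at all, 26 were reached in both conditions, 5 in induced libraries only and 2 in control libraries only. Each of those 2 was reached by 1 control list, and only 1 of the 5 was reached by both induced lists. The same counts were not made over all merged dBigH1 regions. The split is therefore not shown to be particular to the recurrent regions.

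Recurrent regions were overlapped by H1 less often than autosomal regions that only 1 control list held. Of the 418 such regions held by no induced list, H1 peaks overlapped 22.2% and 24.2% in the induced and 26.8% and 27.5% in the control libraries. The recurrent regions were lower in 4 of 4 H1 libraries, by 16.7 percentage points on average, and in the exact two-sided sign-flip permutation test 2 of 16 arrangements were as extreme, the fewest that 4 libraries allow. With 2L left out of both sets the difference was -18.0 points. With every dBigH1 and H1 list cut to scores of 100 or more it was -7.29 points, a setting that also removes H1 peaks. These 4 lists share much of their H1 pattern, so they are not 4 independent looks at it. The 2 sets of regions were not matched by score. Among recurrent regions scoring under 100 in both control lists, 27.4% met any H1 list, against 2.83% of those at 100 or more in both. The part of score in this contrast was not tested.

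Against the recurrent regions on X the difference ran the other way and depended on 2L. An H1 peak overlapped 1 of the 88 X regions (1.14%) in each of the 4 H1 lists. The autosomal share was higher in 4 of 4 libraries, by 7.32 points (2 of 16 arrangements as extreme in the same exact test, the fewest possible). Without 2L the difference was 1.04 points (p = 0.5 by the same exact test). With every dBigH1 and H1 list cut to scores of 100 or more it was 0.708 points. The autosomes held 3159 of 3545 and 4572 of 5182 H1 peaks in induced lists, and 3448 of 3814 and 4609 of 5072 in control lists. The share of X that H1 peaks cover was not measured, so its part in this contrast was not tested.

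**Figure D2:**
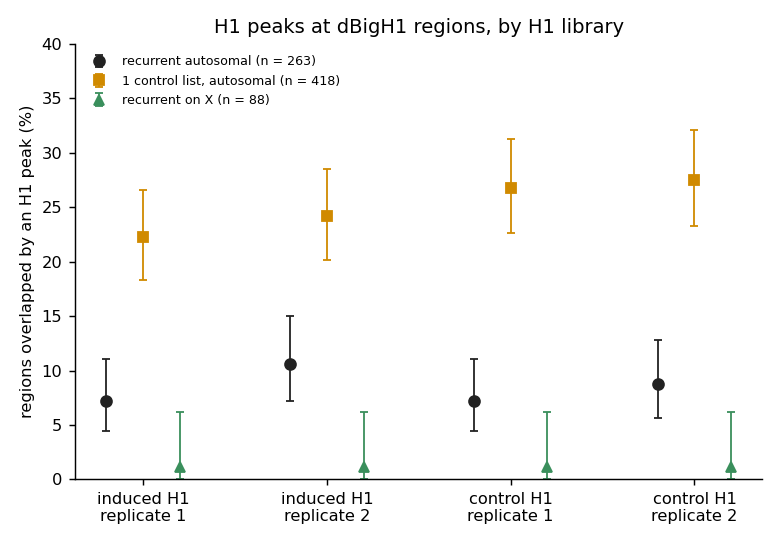
Percent of dBigH1 regions overlapped by an H1 peak in each H1 library, induced and then control, for the 263 recurrent autosomal regions (circles), the 418 autosomal regions of 1 control list and no induced list (squares) and the 88 recurrent regions on X (triangles). Bars are exact 95% binomial intervals, which cover counting error only; the circles lie between 7.22% and 10.6% and below the squares in every library.

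The overlapped regions were unevenly spread over the arms. On 2L an H1 peak overlapped 17 and 21 of the 79 regions in induced and 17 and 18 in control libraries. On 2R none of the 52 regions was overlapped in any H1 list; in each list a count of 0 of 52 allows a share of up to 5.77% by a floor of 3 counts, and of 6.85% by the exact 95% interval. On 3L 2 and 5 of 56 regions were overlapped in induced and 1 and 3 in control libraries, and on 3R 0 and 2 of 74 in induced and 1 and 2 in control libraries. Thus 24 of the 33 regions reached by any H1 list were on 2L, 7 on 3L and 2 on 3R, and all 10 regions reached by every H1 list were on 2L.

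These shares can be read against the length of each arm that H1 peaks cover, taking the midpoint of a region so that its width plays no part. On 2L 20.3% and 26.6% of midpoints lay inside H1 peaks in induced libraries, where 11.3% and 13.7% of the arm was covered, and 20.3% and 22.8% in control libraries, where 11.9% and 13.5% was covered. On 3R 0% and 1.35% of midpoints lay inside in induced libraries, where 11.1% and 18.1% of the arm was covered, and 1.35% in both control libraries, where 10.3% and 17.7% was covered. On 2R no midpoint lay inside an H1 peak, while 5.55% and 10.2% of the arm was covered in induced and 5.62% and 9.50% in control libraries. Midpoints were inside H1 more often than arm length on 2L (9.88 points on average) and less often on 2R (-7.71), 3L (-6.28) and 3R (-13.3), each in 4 of 4 libraries. Each of these 4 comparisons had 2 of 16 arrangements as extreme in the exact sign-flip permutation test, the fewest possible, and they were added after the values were seen.

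**Figure D3:**
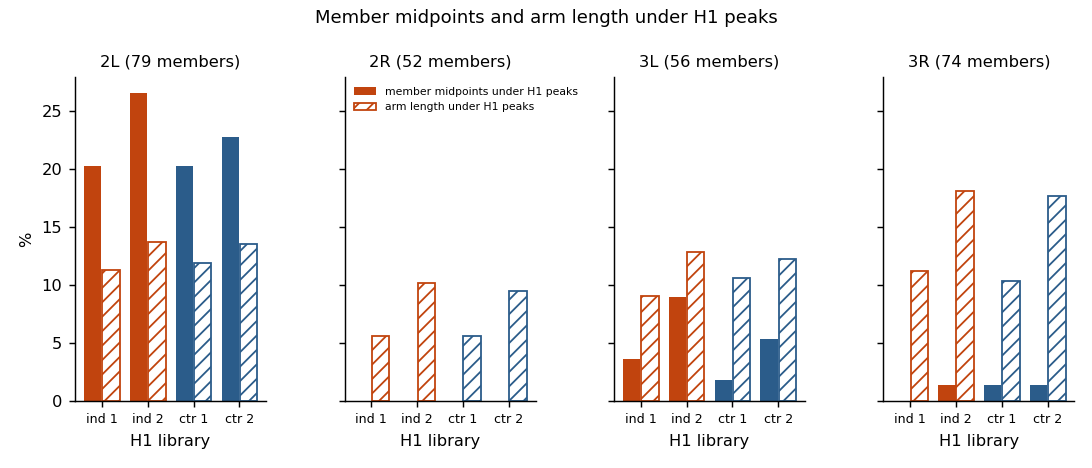
Filled bars give the percent of region midpoints that lie inside an H1 peak and hatched bars the percent of the arm's length covered by H1 peaks, for induced (orange) and control (blue) H1 libraries, replicates 1 and 2, on the 4 large autosome arms. Filled bars exceed hatched bars on 2L and fall short of them on 2R, 3L and 3R, with none at all on 2R.

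Within 2L most of the overlap came from one stretch. The 27 regions between 14 and 19 Mb were overlapped in 12 and 13 cases in induced and in 10 and 12 cases in control H1 libraries, and their median width was 3414 bp. H1 peaks covered 28.0% and 32.8% of that stretch in induced and 30.6% and 32.9% in control libraries. All other 236 regions together were overlapped in 7 and 15 cases in induced and in 9 and 11 cases in control libraries, with a median width of 1750 bp. On the rest of 2L, 7.69% and 15.4% of 52 midpoints lay inside H1 in induced libraries, where 6.61% and 8.36% of the length was covered. In both control libraries 11.5% lay inside, where 6.70% and 8.09% was covered.

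The 10 regions under H1 in all 4 lists had low to middling dBigH1 scores. The first, 2L:13485730-13489366, lay short of the stretch from 14 to 19 Mb and the last, 2L:22920916-22922456, lay beyond it. Within it were 2L:14779042-14783989, 2L:14788381-14791206, 2L:14857887-14859457, 2L:15868687-15870166, then 2L:16147555-16152119, 2L:16164019-16164932, 2L:16178636-16180395 and 2L:18286751-18291457. The control scores of the 10 ran from 50.8 to 129 in replicate 1 and from 51.9 to 105 in replicate 2. The smallest of the 263 regions, 2L:16164019-16164932 at 914 bp, was among them.

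H1 overlap went with low scores and broad width, which is given as a description without a test. When the 263 regions were divided into 4 parts by mean score rank, H1 peaks overlapped 0 and 2 of the 66 highest-ranked in induced libraries and 0 and 1 in control libraries. They overlapped 10 and 17 of the 65 lowest-ranked in induced and 14 of 65 in each control library. Among regions with scores of 100 or more in both control lists, 3 of 106 (2.83%) met any H1 list, against 23 of 84 (27.4%) of those under 100 in both.

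Width sorted the regions in a like way, but mainly through the broadest part. Among the 65 broadest (3167 bp or more), 11 and 15 were overlapped in induced and 11 and 12 in control libraries. Among the 66 narrowest (1256 bp or less), 1 and 2 were overlapped in induced and 2 in each control library. Rank and width themselves were only weakly related, with a Spearman rho of 0.12 over the 263 regions. Of the 65 broadest, 15 were held by an induced list, whose peak can widen the region it joins. With midpoints in place of whole regions, 18 and 27 of all 263 regions in induced and 18 and 22 in control libraries lay in H1. These midpoint counts were not split by width, so they do not show how overlap changed with width.

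**Figure D4:**
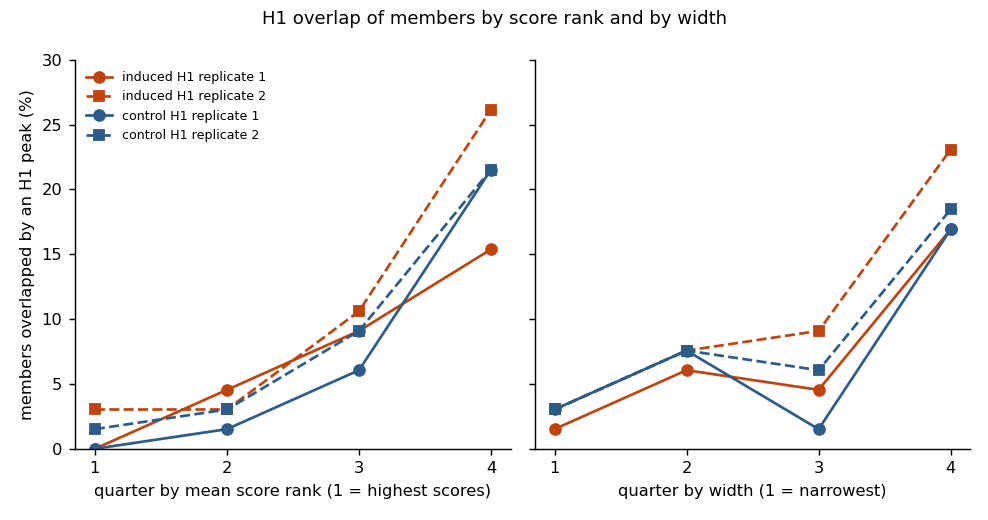
Percent of regions overlapped by an H1 peak in each of the 4 H1 libraries, for 4 equal parts of the 263 regions by mean score rank (left, highest scores first) and by width (right, narrowest first). Overlap lies between 0% and 3.03% in the highest-ranked part and between 15.4% and 26.2% in the lowest-ranked one.

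Most recurrent regions lay 10 kb or more from an H1 peak. The median distance to the nearest H1 peak was 42.3 and 30.6 kb in induced and 38.0 and 27.3 kb in control libraries, over the 261 regions on the large arms. The induced and control libraries overlapped in this measure; the mean difference of the log10 median was 0.05 (exact two-sided permutation p = 0.667, smallest possible 0.333), and it turned negative without the first induced or the second control H1 library (-0.022 and -0.024). Regions within 10 kb of an H1 peak, overlaps included, made up 24.1% and 28.7% in induced and 25.7% and 26.1% in control libraries. Distances of 200 kb or more were found for 51 and 38 regions in induced and for 47 and 41 in control libraries. For comparison, 871 merged regions on the large arms and X were held by 1 or more control lists, recurrent ones included. Their median distances were 28.6 and 22.6 kb in induced and 24.6 and 22.3 kb in control libraries.

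Regions of 1 control list lay nearer to H1. Their medians were 12.9 and 10.4 kb in induced and 8.69 and 9.43 kb in control libraries. The recurrent regions were farther in 4 of 4 libraries, by 0.52 on the log10 scale (2 of 16 arrangements as extreme in the exact sign-flip permutation test, the fewest possible; added after the values were seen). Recurrent regions on X were farther still, with medians of 489 and 402 kb in induced and 416 and 432 kb in control libraries. How densely H1 peaks lie on X was not measured, so its part in these distances was not tested.

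**Figure D5:**
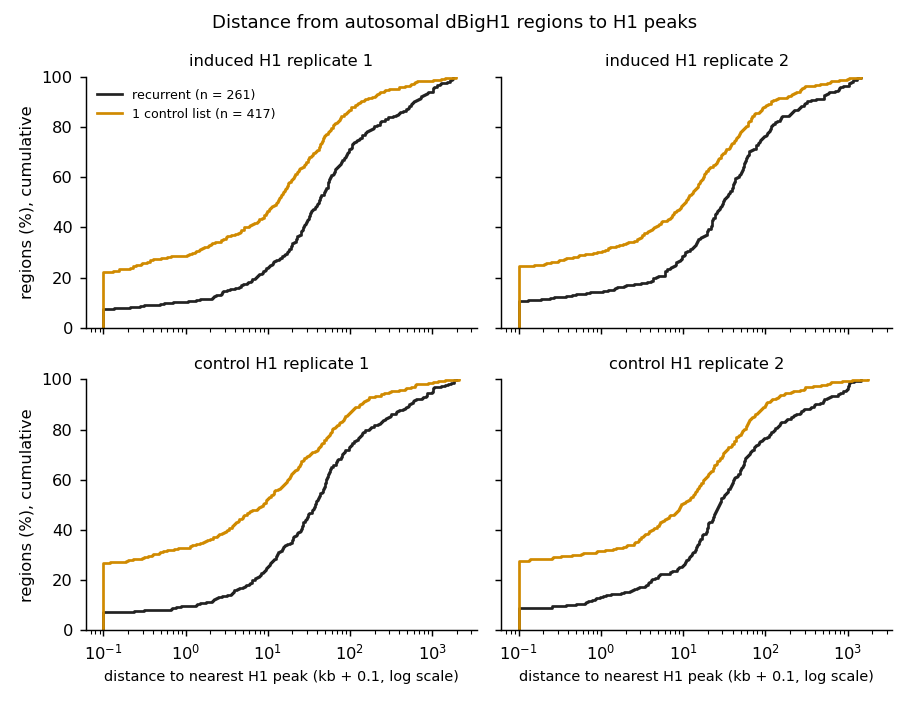
Cumulative percent of autosomal dBigH1 regions against distance to the nearest H1 peak (kb plus 0.1, log scale) in each H1 library, for 261 recurrent regions (black) and 417 regions of 1 control list and no induced list (orange) on the large arms. The black curve runs below the orange one over most of the range in all 4 panels, with medians of 27.3 to 42.3 kb against 8.69 to 12.9 kb.

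Few recurrent regions were found again with the dBigH1 antibody in induced cells. The induced lists held 10 and 13 of the 263 regions, which is 3.80% (exact 95% interval 1.84 to 6.88) and 4.94% (2.66 to 8.30), with intervals that cover counting error only. Over the 952 regions held by 1 or more control lists the shares were 3.99% and 5.57%, so the recurrent regions stood near that level. Autosomal regions of exactly 1 control list were held in 5.53% and 7.66% of cases. Of the 88 recurrent regions on X none was held by either induced list, and 0 of 88 allows a share of up to 3.41% by the same floor of 3 counts, and of 4.11% by the exact interval. With 2 libraries no test of these shares could pass 0.05, and the induced lists were shorter, so absence from them does not show that dBigH1 was absent.

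The 19 regions held by an induced list are set beside the other 244 as a description. Of the 19, 14 were on 2L, against 65 of the 244. Their median width was 5276 bp, against 1772 bp, but an induced peak can widen the region it joins. Any H1 list overlapped 13 of the 19 (68.4%) and 20 of the 244 (8.20%). Of the 19, 12 lay between 14 and 19 Mb of 2L, where H1 peaks are dense, and 9 of these 12 met an H1 list; the part of position in this contrast was not tested. Outside that stretch 4 of 7 induced-held regions and 15 of 229 others met an H1 list. Their median control scores were 66.3 and 71.7, against 117 and 120, and 1 of the 19 was among the 66 highest-ranked regions. The 23 induced peaks at these regions had scores of 50 to 768 with a median of 81.2, and 6 of them reached 100.

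Both induced lists held 4 of the regions. The strongest, 2R:9372718-9374361, had scores of 62.2 and 768 in induced lists (ranks 107 and 1) and of 1609 and 3100 in control lists (ranks 7 and 1). It was 1644 bp wide, and its nearest H1 peaks were 73.3 and 37.0 kb away in induced and 20.6 and 12.6 kb away in control libraries. It is the one region of the 263 that led a list in both conditions, but the induced replicates ranked it far apart.

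The other 3 were broad merged regions of 2L. Their best ranks were 29 of 196 and 25 of 238 in the induced lists (replicates 1 and 2). In the control lists their best ranks were 130 of 599 and 279 of 719. 2L:15840728-15848679 scored 50 and 110 in induced and 172 and 97.1 in control lists, and H1 peaks overlapped it in both induced libraries and the second control library. 2L:18286751-18291457 scored 88.3 and 87.0 in induced and 54.9 and 65.4 in control lists, and it lay under H1 in all 4 libraries. 2L:17847206-17856622 scored 57.4 and 81.2 in induced and 66.3 and 52.9 in control lists, with H1 peaks 3.09 and 2.42 kb away in induced and 3.08 and 5.09 kb away in control libraries. For the 261 regions on the large arms, the nearest induced dBigH1 peak was a median of 363 kb (replicate 1) and 443 kb (replicate 2) away.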

How the data were processed

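The submitters' processing notes name Bowtie 0.12.5, MACS 1.4.2 and build dm3; caller settings and any use of the inputs are not given in the sources used here. The deposited lists hold, per peak, position and a score by the authors' caller, 1 list per library, serving here for ranks and filters inside a list; depth is unknown. Regions were merged in Python 3.11.15 (NumPy 2.4.6, SciPy 1.17.1), and the code was tested on simulated lists. The libraries were the unit of every test: exact permutation between conditions, exact sign flips over the H1 libraries between sets of regions. Binomial intervals are exact (Clopper-Pearson, 95%). Alternatives were a score of 100 or more, joined peaks, lists of equal length, stricter overlap, midpoints, each library left out and a replicate block. The score setting was applied to every dBigH1 and H1 list. Regions were named by rule: 4 lowest mean ranks per large arm, all on chromosome 4, all held by both induced lists or by all 4 H1 lists, the 5 widest, the largest clusters (ties ordered by covered length) and the edges of the rule. Members, sets and tests were chosen with earlier results of these data known.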

Additional observations from a re-analysis of the deposited data

Results flagged for a closer look

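On 3L the change in H1 overlap from control to induced cells ran in opposite directions in the recurrent regions and in the regions of 1 control list. The recurrent regions gained 1.79 points in replicate 1 and 3.57 in replicate 2 (2.68 on average, from 1 and 2 regions of 56), whereas the regions of 1 control list fell by 3.96 and 6.93 points. On 2L the recurrent regions changed by 0 and 3.80 points and those of 1 control list fell by 5.92 and 1.97. On 2R the values were 0 and 0 against -3.85 and 1.92, and on 3R -1.35 and 0 against -3.57 and -4.46. Over all autosomes, 3L included, they were 0 and 1.90 against -4.55 and -3.35. Only on 3L were the directions opposite in both replicates, and on 2L they were opposite in replicate 2. The contrast is thus not shown to be general or to be particular to 3L. Each change subtracts the control from the induced library of the same number, although nothing in the labels ties same-numbered libraries together. The difference between the sets was not tested.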

How the results depend on the processing

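Of 69 alternative values, 56 kept their direction, their side of the threshold or their size, 10 moved and 3 changed direction; no test here could pass 0.05. Cutting every dBigH1 and H1 list to scores of 100 or more left 106 recurrent regions, by construction. Of these, 1.89% had a neighbour within 10 kb. On average 0.472% were held by an induced list (4.37% in full lists), but the induced lists were cut as well. Control lists of equal length gave 3.50% held by an induced list. Leaving out each replicate gave 441 to 556 regions and 18.4 to 26.6% with a neighbour, since 1 list then suffices; 3.42 to 4.94% held by an induced list; an induced minus control H1 overlap of -0.760 to 2.66 points; and a log10 median distance difference of -0.024 to 0.12. Neighbours within 50 kb were found for 33.5%. With a replicate block, the H1 overlap difference stayed 0.951 points (exact sign-flip p = 1) and the log10 distance difference 0.05 (p = 0.5, the smallest possible), by construction. Replicate differences in H1 presence correlated between conditions at r = 0.20 over the 263 regions; nothing in the labels ties same-numbered libraries together. Merging only the control lists again gave 263 regions but not the same ones, as 1 region dropped out and 1 was split in 2. Asking for 50% of the shorter peak gave 259. GC content and distance to gene starts were not run. The cause of the remaining shifts was not tested.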
